A study of Homo sapiens with 12 samples.

Results

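The SNU-216 line, a human gastric cancer cell line kept in culture, was sorted into CD133+ and CD133- cells, and both fractions were compared on 4 arrays out of the 12 of the study. The 4 arrays were chosen by their labels alone: 2 hold RNA of SNU-216 CD133+ cells and 2 hold RNA of SNU-216 CD133- cells. The study profiled the same fractions of KATO-III and SNU-601, which are also gastric cancer lines, on the other 8 arrays (2 per fraction and line), and asked which genes go with the CD133 stem cell marker. All cells were untreated and grown in the same medium with calf serum, stained with an antibody to CD133, and taken from the brightest and the dimmest ends of the fluorescence range, so cells of middling brightness are in neither fraction. The text deposited with the series names SNU201 in one place where the sample labels and the study's text name SNU-216, and the labels were followed. Nothing states that the 2 arrays of a fraction came from separate cultures or sorts. Every p-value below therefore rests only on the spread between arrays of the same fraction and line, which may be technical. That spread was estimated jointly from all 12 arrays.

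CD133 is the product of PROM1, a glycoprotein with several membrane-spanning segments that sits on protrusions of epithelial and stem cells. It is used to enrich tumour-initiating cells in many carcinomas, although differentiated gland cells carry it too. Cells of an established line share their origin, and a sort on one surface protein divides such a population by a single molecule. In RNA from a whole fraction, fewer cells that express a gene and less RNA per cell cannot be told apart.

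Values are the deposited intensities, in arbitrary units after quantile normalization and background subtraction. Dim spots were raised to a floor of 32.7, taken from how far the lowest values scatter below 0, and a fold change against a fraction with both arrays at or below it is given as "at least". A log2 change is the mean log2 intensity in CD133+ minus that in CD133- cells, with its standard error (SE), and a gene was called where limma's Benjamini-Hochberg adjusted p over 20147 tested genes was under 0.05. Genes are described as clear where they lay above 100 on at least 2 of the 4 arrays, which 11714 did. The arrays of 1 fraction correlated at r = 0.993 over the tested genes (log2) in each fraction, and arrays of different fractions at 0.982. Each of the 4 arrays had between 16406 and 16412 genes above the floor. Quantile normalization makes such counts nearly equal, so they do not measure array quality.

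The fractions carried the marker they were sorted for. PROM1 read 9273 and 8773 on the CD133+ arrays, and 2232 and 2219 on the CD133- arrays. That is a 4.05-fold difference (log2 change 2.02, SE 0.06), and PROM1 was well above the floor in the CD133- cells as well. The sort used this gene's protein, so the difference checks the labels and is no finding. PROM2, the paralog with the same membrane layout, ran the other way, with 594 and 589 in CD133+ and 836 and 931 in CD133- cells (log2 change -0.58, SE 0.07, adjusted p = 0.000503). All 9 measured epithelial markers were clear, led by KRT19, and their intensities summed to 63085 and 66675 in CD133+ and to 61943 and 62158 in CD133- cells. Such sums weigh the brightest markers most. Of the 9, 3 were called lower and 1 higher in CD133+ cells (33.3% and 11.1%, beside 14.0% and 14.6% of all genes tested). Their log2 changes ran from -0.90 to 0.30. Of 10 fibroblast markers 6 were under the floor on all 4 arrays, as were 6 of 10 leukocyte and 10 of 10 endothelial markers, and none of these 30 was clear. The fibroblast markers summed to 160 and 143 in CD133+ and to 91.0 and 110 in CD133- cells, with COL5A1 highest at 65.6. The leukocyte markers summed to 198 to 215 in CD133+ and 201 to 204 in CD133- cells, and the endothelial markers to 42.1 and 76.6 against 42.5 and 63.1.

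In CD133+ cells 2945 of the tested genes rose (14.6%) and 2817 fell (14.0%). Most of these changes were small: 3317 of the 5762 called genes differed by less than 1.5-fold. A difference of at least 2-fold was seen for 381 higher genes (1.89%) and 312 lower ones (1.55%), and 58 and 22 genes reached 4-fold. Among clear genes 2603 were higher (22.2%) and 2513 lower (21.5%). The change in SNU-216 lay above the mean change in KATO-III and SNU-601 for 3151 genes (15.6%) and below it for 2815 (14.0%), and 3839 of the 5762 genes called in SNU-216 were among them.

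The genes that gained most in CD133+ cells came from unrelated families, and several went from near the floor to a strong signal. ACTA2, the smooth muscle alpha-actin, read 598 and 580 in CD133+ cells, and 38.3 and 25.2 in CD133- cells, of which the second is under the floor (log2 change 4.06, SE 0.14, adjusted p = 6.91e-07). KRT13, a keratin of the upper layers of stratified linings, read 2539 and 2751 against 161 and 157 (log2 change 4.05, SE 0.06, adjusted p = 1.49e-08). The fractions lay far apart in both genes, and genes with overlapping fractions were left out of this choice beforehand. OLR1, the receptor for oxidised low-density lipoprotein, was the brightest of the 15 genes with the largest rise, at 5672 and 6034 against 785 and 877 (7.05-fold). EDN2, which encodes the vasoconstrictor peptide endothelin 2, read 2432 and 2617 against 318 and 337 (7.71-fold). SLC9A2, a sodium-proton exchanger of gut epithelium, read 1077 and 1174 against 118 and 132 (9.01-fold). In these 3 genes the CD133- cells kept a measurable level.

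ALDH1A1, an aldehyde dehydrogenase of retinoic acid synthesis that is itself used as a stem cell marker, read 270 and 293 in CD133+ and 27.4 and 33.5 in CD133- cells (log2 change 3.09, SE 0.07, adjusted p = 1.54e-07). One of the CD133- arrays was thus under the floor and the other just above it. In KATO-III and SNU-601 the same gene was lower in CD133+ cells, with log2 changes of -1.17 and -0.97. KCNMB4, an accessory subunit of the large-conductance potassium channel, read 386 and 407 against 20.5 and 7.52, which is at least 12.1-fold. EYA1, a phosphatase and coactivator of organ development, read 302 and 246 against 15.7 and 27.3, at least 8.33-fold. Both genes were at or below the floor in the CD133- cells and on all 8 arrays of the other lines. The others of the 15 included OSAP (now MGARP, a mitochondrial protein), ZNF533 (now ZNF385B, a zinc finger protein), the protocadherin PCDH7, the fucosyltransferase FUT4, the carboxypeptidase CPVL and the ceramide galactosyltransferase UGT8, and their rises ran from 7.24-fold for UGT8 to 12.8-fold for OSAP.

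Among the 15 genes with the largest fall in CD133+ cells, PDE1C and COL8A1 stood first. COL8A1, a short-chain collagen, read 204 and 181 in CD133+ and 1099 and 1228 in CD133- cells (log2 change -2.60, SE 0.12, adjusted p = 3.19e-06). FBLN1, a fibulin that binds elastic fibres and basement membranes, read 382 and 365 against 1959 and 1852 (5.10-fold lower in CD133+ cells). CXCL12, the chemokine ligand of CXCR4, read 371 and 359 against 1646 and 1588 (4.43-fold). SPON1, a secreted adhesion protein, was brighter than these in CD133+ cells, at 618 and 598 against 2307 and 2486 (3.94-fold). In all 4 genes, which were chosen among genes without overlap, the arrays of a fraction lay close together and far from the other fraction. These 4 encode secreted or matrix proteins, a grouping made after the values were seen, and the list of integrins and matrix genes gave 7 higher and 7 lower of 29 tested (24.1% each, beside 14.6% and 14.0% of all genes tested). PDE1C, a phosphodiesterase of cyclic nucleotides, fell most, from 382 and 367 in CD133- to 66.7 and 43.6 in CD133+ cells (log2 change -2.80, SE 0.18, adjusted p = 1.43e-05). NDP, which encodes the Frizzled ligand norrin, was under the floor on both CD133+ arrays and at 121 and 162 on the CD133- arrays, at least 4.29-fold lower. CDA, the cytidine deaminase that inactivates cytosine nucleoside drugs, read 337 and 320 against 1331 and 1439 (4.21-fold). The others of the 15 included HOXB8 (a homeobox factor), NECAB1 (a calcium-binding protein), DENND2A (an exchange factor for Rab proteins), ACOT4 (a thioesterase of acyl-CoA), UBA7 (the activating enzyme for ISG15), ODZ3 (a teneurin) and the fucosyltransferase FUT3, at 3.84-fold for HOXB8 to 5.75-fold for NECAB1.

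**Figure D1:**
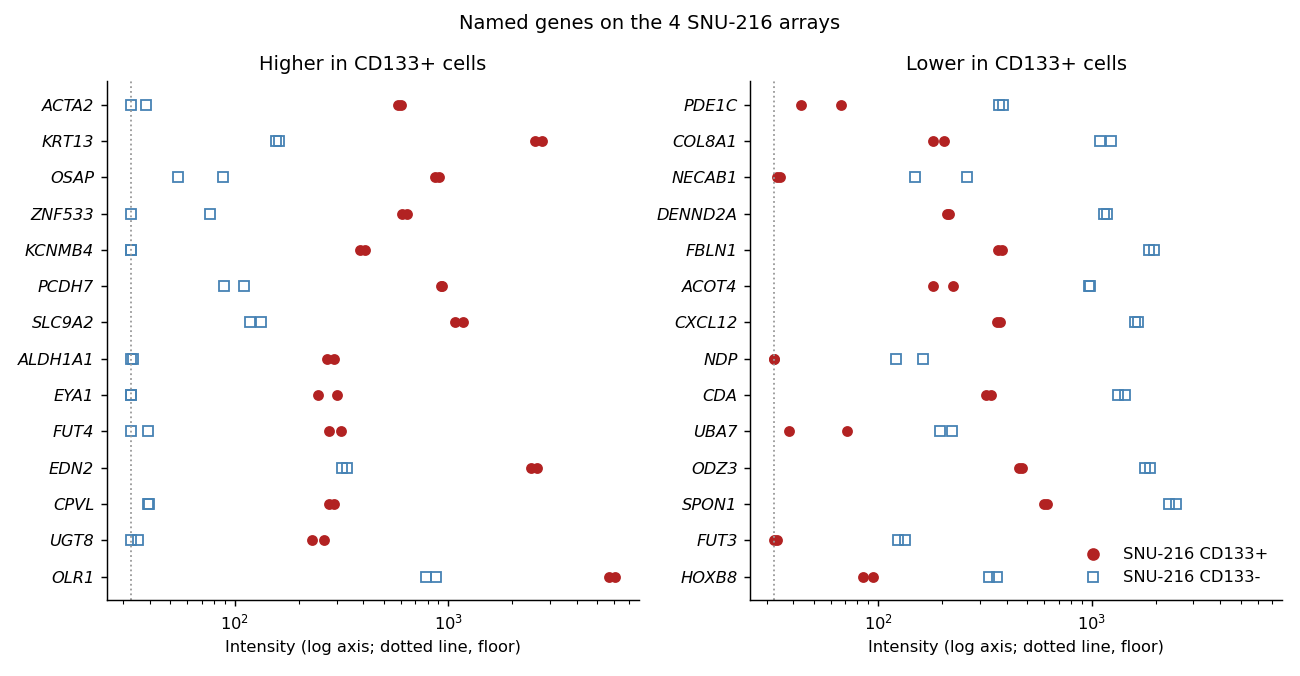
Intensity on a log axis of 14 of the genes with the largest rise (left) and 14 of those with the largest fall (right) in SNU-216 CD133+ cells, 1 point per array, filled circles for CD133+ and open squares for CD133-; values under the floor of 32.7 (dotted line) are drawn at it. The choice of genes required both arrays of a fraction to lie on the same side of both arrays of the other. Several CD133- points on the left sit at the floor.

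All 30 genes differed from the mean change of the other lines in the test of that difference, but for 15 of them (6 that rose and 9 that fell) the other lines were at or below the floor on all 8 arrays, so there the test sets a measured change against no measurement. Where the other lines did express the gene, some moved against SNU-216. KRT13 was lower in KATO-III CD133+ cells (log2 change -2.57, adjusted p = 8.32e-08) and read -0.12 in SNU-601. UBA7 fell in KATO-III as well, with a log2 change of -2.05, and its change in SNU-601 was 0.42 (adjusted p = 0.38).

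FUT4 and FUT3 act on the same kind of sugar chain. FUT4 makes the Lewis x structure, and FUT3 can add the fucose that closes Lewis a and Lewis b. In CD133+ cells FUT4 rose from 26.4 and 39.3 to 277 and 314 (log2 change 3.04, SE 0.11), while FUT3 fell from 124 and 133 to 33.5 and 16.4 (log2 change -1.95, SE 0.06). In the dimmer fraction of each gene 1 array was under the floor, which limits the size and the SE. Over the alternative settings of the fit the log2 change ran from 1.56 to 3.20 for FUT4 and from -2.45 to -0.36 for FUT3. Neither change passed the test in KATO-III or SNU-601, and the difference between SNU-216 and the other lines did, for FUT4 with an adjusted p of 3.58e-06 and for FUT3 of 1.63e-06.

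The gene list that leaned most to one side was antigen presentation. MHC class I molecules carry peptides to the cell surface: the proteasome, with its interferon-inducible subunits PSMB8, PSMB9 and PSMB10, cuts the peptides, TAP1 and TAP2 pump them into the endoplasmic reticulum, ERAP1 and ERAP2 trim them, tapasin (TAPBP) loads them, and the heavy chains (among them HLA-B, HLA-C and the non-classical HLA-E, HLA-F and HLA-G) hold them together with beta-2-microglobulin (B2M). Promoters of these genes often carry a site for interferon regulatory factors and a site for NF-kB. Promoter sequences of 4 of these genes and of IFIT1 are shown as hand-picked examples of those letters. HLA-B, HLA-F and TAPBP fell alike, B2M read the same in both fractions, and IFIT1 rose. They come from RefSeq on build GRCh38.p14, 250 bases before to 50 after the gene's start, and capitals mark matches, on either strand, to the 9-letter forms GAAANNGAA (interferon type) and GGGNNTTNC (NF-kB type), which may overlap each other. Of 35116 promoters of the same length, 8.11% held the first and 16.2% the second. A match describes letters only.
HLA-B (chr6:31357130-31357429, minus strand): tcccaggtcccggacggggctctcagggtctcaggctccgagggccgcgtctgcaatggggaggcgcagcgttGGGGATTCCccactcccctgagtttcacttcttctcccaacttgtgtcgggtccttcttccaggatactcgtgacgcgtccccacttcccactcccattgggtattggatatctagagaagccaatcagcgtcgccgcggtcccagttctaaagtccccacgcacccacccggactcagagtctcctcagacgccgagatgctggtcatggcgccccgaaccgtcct
HLA-F (chr6:29723184-29723483, plus strand): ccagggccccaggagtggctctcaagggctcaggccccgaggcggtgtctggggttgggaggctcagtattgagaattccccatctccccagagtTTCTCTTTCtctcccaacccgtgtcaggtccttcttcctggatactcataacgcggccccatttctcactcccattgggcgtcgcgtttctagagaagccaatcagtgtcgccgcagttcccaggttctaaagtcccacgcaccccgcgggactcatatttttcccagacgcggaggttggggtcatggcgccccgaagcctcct
TAPBP (chr6:33314029-33314328, minus strand): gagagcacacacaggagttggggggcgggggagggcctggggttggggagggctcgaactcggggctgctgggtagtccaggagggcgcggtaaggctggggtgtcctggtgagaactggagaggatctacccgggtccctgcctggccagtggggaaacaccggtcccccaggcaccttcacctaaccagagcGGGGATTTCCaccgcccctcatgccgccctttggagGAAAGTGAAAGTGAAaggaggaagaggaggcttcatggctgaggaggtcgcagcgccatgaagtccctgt
B2M (chr15:44711267-44711566, plus strand): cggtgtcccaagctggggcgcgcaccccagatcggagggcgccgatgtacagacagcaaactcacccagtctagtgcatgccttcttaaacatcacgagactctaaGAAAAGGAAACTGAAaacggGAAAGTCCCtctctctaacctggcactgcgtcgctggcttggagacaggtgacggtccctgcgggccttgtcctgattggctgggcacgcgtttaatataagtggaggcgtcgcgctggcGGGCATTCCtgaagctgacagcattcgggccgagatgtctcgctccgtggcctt
IFIT1 (chr10:89392373-89392672, plus strand): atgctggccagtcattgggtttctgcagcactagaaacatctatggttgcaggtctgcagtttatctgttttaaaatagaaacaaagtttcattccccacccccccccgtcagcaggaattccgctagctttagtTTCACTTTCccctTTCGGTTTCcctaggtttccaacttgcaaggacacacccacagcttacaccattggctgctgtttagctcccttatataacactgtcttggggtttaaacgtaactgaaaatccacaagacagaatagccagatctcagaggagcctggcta

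Of 24 antigen presentation genes tested, 15 were lower and 0 higher in CD133+ cells (62.5% lower, beside 14.0% of all genes tested), with a median log2 change of -0.45 (0.00 over all genes). HLA-B read 5648 and 5436 in CD133+ and 9969 and 11441 in CD133- cells (log2 change -0.95, SE 0.07, adjusted p = 3.73e-05). HLA-F read 1250 and 1103 against 2235 and 2416 (log2 change -0.98, SE 0.10). TAPBP read 1075 and 1141 against 1962 and 1815 (log2 change -0.77, SE 0.05). Each of the 3 genes was between 1.70-fold and 1.98-fold lower in CD133+ cells. The fractions did not overlap in any of them, which held for 12275 of 20147 tested genes and for all 5762 called ones. PSMB9 read 391 and 385 against 685 and 758 (log2 change -0.89, SE 0.08), and PSMB8 1135 and 1107 against 1856 and 1924 (log2 change -0.75, SE 0.04). ERAP2 read 144 and 141 against 248 and 239 (log2 change -0.77, SE 0.11). HLA-C, HLA-E, HLA-H, PSMB10, TAP1, TAP2 and HLA-DMA also fell, and so did the dim CD74, the class II invariant chain, and NLRC5, the class I transactivator, which were not clear. B2M, the partner of every class I heavy chain, read 8787 and 8432 against 8545 and 8292 (log2 change 0.03, adjusted p = 0.76). The class I genes are near-identical in long stretches and probes can catch more than one of them, so the values of single class I genes are uncertain.

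Of the printed promoters, HLA-B held an NF-kB type match and no interferon type match, and HLA-F the reverse. TAPBP, which fell, and B2M, which read the same in both fractions, each held 2 matches of both kinds. Of 12 lower list members with a promoter sequence, 7 held the interferon type and 4 the NF-kB type. Of 6 members that were not called, 4 held the first and 1 the second. In KATO-III 9 of the 24 genes were higher in CD133+ cells and 1 lower (18.7% and 20.6% of all genes tested), with a median log2 change of 0.14, and in SNU-601 6 were higher and 1 lower (8.59% and 7.78% of all), with a median of 0.08. The comparison of the lines themselves was tested: in 18 of 24 genes the change in SNU-216 lay below the mean of both (14.0% of all genes). Many of these genes sit side by side in the MHC region of chromosome 6, where 11 of 17 were lower. The fall there was not limited to the list. Of the 113 other tested genes between HLA-F and TAPBP, the first and the last member on that chromosome, 31 were lower and 5 higher (27.4% and 4.43%), with a median log2 change of -0.07, and of the 71 with a mean above 100, 28 were lower (39.4%). On the rest of chromosome 6, 58 of 674 genes were lower and 145 higher (8.61% and 21.5%). Of the 7 list members on other chromosomes 4 were lower.

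**Figure D2:**
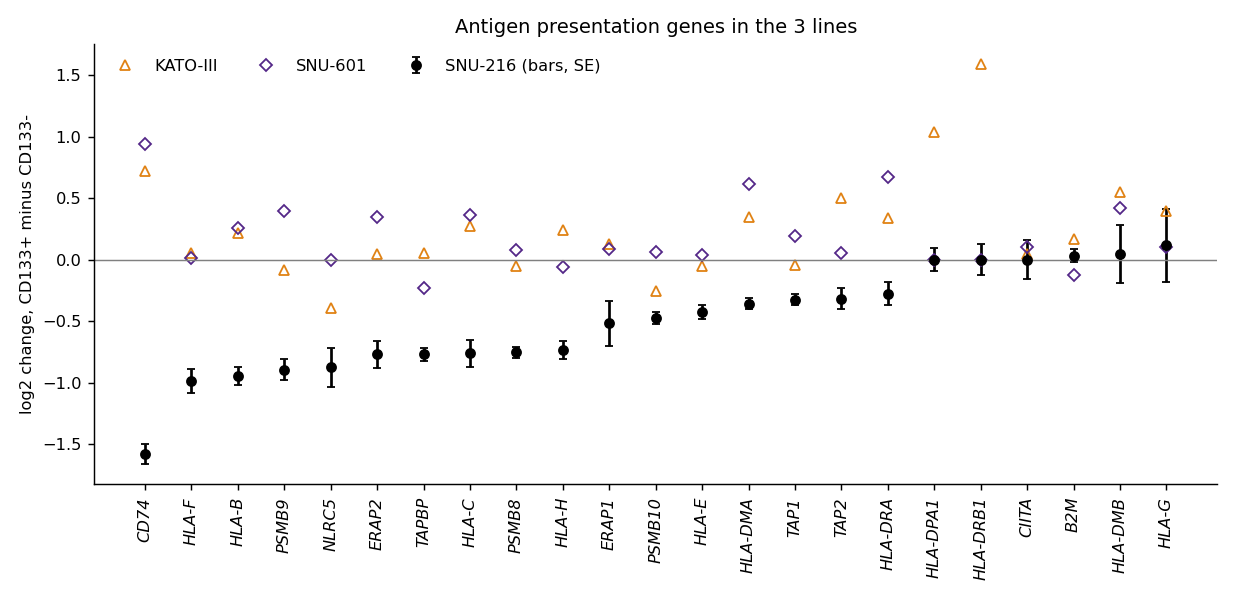
Log2 change, CD133+ minus CD133-, of 23 antigen presentation genes in SNU-216 (filled circles, with SE bars from limma), KATO-III (open triangles) and SNU-601 (open diamonds), ordered by the change in SNU-216. In SNU-216 the points run from -1.58 for CD74 to 0.11 for HLA-G, while the other lines scatter around and above 0.

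Genes induced by interferon were called lower more often than genes at large, and called higher about as often. Of 47 tested, 17 were lower and 8 higher in CD133+ cells (36.2% and 17.0%), with a median of 0.00. Over all genes tested 14.0% were lower and 14.6% higher, and over clear genes 21.5% and 22.2%. IRF1, a transcription factor that acts on class I genes, read 1046 and 1085 in CD133+ and 2340 and 2434 in CD133- cells (log2 change -1.16, SE 0.07, adjusted p = 1.08e-05). IFI35 read 437 and 431 against 1010 and 1005 (log2 change -1.22, SE 0.09). UBE2L6, the conjugating enzyme for ISG15, read 60.2 and 76.1 against 130 and 138 (log2 change -0.98, SE 0.11). IFIT1, an RNA-binding antiviral protein whose promoter holds 2 interferon type matches, ran the other way, at 3828 and 3746 against 1061 and 989 (log2 change 1.89, SE 0.10, adjusted p = 6.30e-06). GBP2, a guanylate-binding protein, and IFIT2 were also higher, by 0.88 and 0.86 on the log2 scale. Of 16 lower genes with a promoter sequence 10 held the interferon type match, of 5 higher genes 4 did, and of 16 genes that were not called 11 did.

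NF-kB targets and chemokines leaned to the lower side: of 29 tested, 10 were lower and 2 higher (34.5% and 6.90%, beside 14.0% and 14.6% of all genes tested). Their median log2 change was -0.23 (-0.06 without replicate 1 of the CD133- arrays). LCN2, the iron-siderophore binding lipocalin, read 3515 and 3683 in CD133+ and 9288 and 9665 in CD133- cells (log2 change -1.40, SE 0.05, adjusted p = 9.52e-07). IL32, an inflammatory cytokine, read 2717 and 2602 against 5634 and 5780 (log2 change -1.10, SE 0.05), and TNF read 94.1 and 111 against 277 and 196 (log2 change -1.19, SE 0.17). The TNF-induced gene TNFAIP2 read 96.5 and 74.4 against 267 and 263 (log2 change -1.65, SE 0.15). The factor's own subunits NFKB1 and NFKB2 fell too (log2 changes -0.45 and -0.68), while BIRC3, an inhibitor of apoptosis, was higher by 0.62. The chemokine CXCL1 read 226 and 506 against 585 and 658 and did not pass the test (log2 change -0.87, SE 0.42, adjusted p = 0.17).

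Cell division genes leaned to the higher side. Of 43 DNA replication genes 16 were higher and 3 lower (37.2% and 6.98%), with a median log2 change of 0.19, and of 38 cyclins, CDKs and their regulators 13 were higher and 3 lower (34.2% and 7.89%), with a median of 0.12, beside 14.6% and 14.0% of all genes tested and 22.2% and 21.5% of clear genes. TIPIN, a replication fork protection protein, read 755 and 860 in CD133+ and 447 and 429 in CD133- cells (log2 change 0.88, SE 0.10, adjusted p = 0.000295). GMNN, the inhibitor of origin licensing, read 591 and 577 against 363 and 378 (log2 change 0.66, SE 0.12). E2F7, a repressor of the E2F family, read 933 and 1184 against 502 and 512 (log2 change 1.05, SE 0.12), and CCNE2, a cyclin of S phase entry, 1909 and 1996 against 1310 and 1126 (log2 change 0.68, SE 0.10). CDC2, the mitotic kinase now called CDK1, read 1886 and 1803 against 1035 and 954 (log2 change 0.89, SE 0.10). POLD1 and POLD2, subunits of DNA polymerase delta, were lower (log2 changes -0.49 and -0.75), and they lie on chromosomes 19 and 7.

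Of 54 mitosis genes 20 were higher and 4 lower (37.0% and 7.41%; 12 higher without replicate 1 of the CD133+ arrays), with a median of 0.21. Over all genes tested 14.6% were higher and 14.0% lower, and over clear genes 22.2% and 21.5%. ZWINT, a kinetochore protein, read 747 and 781 against 452 and 467 (log2 change 0.73, SE 0.10). PLK1, the kinase of mitotic entry, was lower, at 951 and 989 against 1429 and 1434 (log2 change -0.56, SE 0.12), and so was CENPE, a kinetochore motor (log2 change -0.48). CCNB1 (adjusted p = 0.97) and CCNA2 (adjusted p = 0.087), the cyclins of mitotic entry, did not pass the test, with log2 changes of 0.03 and -0.17. In the other lines all 4 of these genes were higher in CD133+ cells, and for each the difference between SNU-216 and their mean passed the test. PLK1, for instance, changed by 1.20 in KATO-III and 0.75 in SNU-601. Over the mitosis list the median was 0.63 in KATO-III and 0.38 in SNU-601. Of its 54 genes 26 lay below the mean change of the other lines and 1 above it, beside 14.0% and 15.6% of all genes tested.

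Histone genes leaned to the lower side. Of 56 tested, 15 were lower and 1 higher (26.8% and 1.79%, beside 14.0% and 14.6% of all genes tested). Their median log2 change was -0.21 (-0.09 without replicate 1 of the CD133- arrays). HIST1H4K read 238 and 218 in CD133+ and 517 and 530 in CD133- cells (log2 change -1.20, SE 0.10, adjusted p = 5.82e-05). HIST2H2AA4 read 327 and 341 against 739 and 759 (log2 change -1.16, SE 0.15), and HIST1H2AC 274 and 261 against 526 and 593 (log2 change -1.06, SE 0.11). H1F0, a linker histone of resting cells, was the 1 higher gene (log2 change 0.37). In KATO-III 25 of these genes were also lower and 5 higher (20.6% and 18.7% of all genes tested), with a median of -0.28. In SNU-601 1 was lower and 4 were higher (7.78% and 8.59% of all), with a median of 0.05. Histone gene copies within a cluster share most of their sequence, so single members are uncertain. Whether the amplified RNA holds histone transcripts in proportion was not tested.

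Of 27 tested keratins 6 were higher and 4 lower (22.2% and 14.8%, beside 14.6% and 14.0% of all genes tested), so the lower share was that of all genes. Beside KRT13, KRT17 read 1298 and 1292 in CD133+ and 400 and 390 in CD133- cells (log2 change 1.71, SE 0.05, adjusted p = 2.58e-07), KRT16 read 586 and 528 against 238 and 281 (log2 change 1.10, SE 0.11), and KRT23 rose by 1.63 on the log2 scale. KRT16 and KRT17 mark basal and wounded epithelium. KRT18, a keratin of simple epithelium, read 340 and 336 against 447 and 439 (log2 change -0.39, SE 0.10). KRT17 fell by 2.79 on the log2 scale in KATO-III, as KRT13 did.

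Of 18 tested enterocyte surface genes 3 were higher and 1 lower (16.7% and 5.56%), a higher share near the 14.6% of all genes, and those that rose were dim. CEACAM6, an adhesion molecule often raised in gastrointestinal tumours, read 164 and 165 in CD133+ cells and was under the floor in CD133- cells (9.64 and 8.45), at least 5.04-fold higher. AGR2, a disulfide isomerase needed for mucin folding, belongs to the list of mucin and trefoil genes, where it was the 1 higher gene. It read 185 and 129 against 27.0 and 38.3 (log2 change 2.12, SE 0.14). TSPAN8, of the tetraspanin list (7 higher and 3 lower of 21 tested, 33.3% and 14.3%), read 144 and 155 against 48.3 and 57.5 (2.83-fold). The mucin genes MUC1, MUC4 and MUC20 were lower (log2 changes -0.38, -0.88 and -1.10), and the 19 tested mucin and trefoil genes gave 1 higher and 3 lower (5.26% and 15.8%, beside 14.6% and 14.0% of all genes). Of 23 tested stem cell markers 4 were higher and 3 lower (17.4% and 13.0%), which is also near the shares over all genes. Apart from ALDH1A1 the largest change was in ALCAM (0.76). CD44 read 4142 and 4276 against 4541 and 4636 (adjusted p = 0.19), SOX9 5813 and 5841 against 5826 and 6392 (adjusted p = 0.55), and LGR5 and ABCG2 were under the floor on all 4 arrays.

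Members of the TGF-beta and BMP families changed at several steps of the pathway: of 24 tested, 10 were higher and 3 lower (41.7% and 12.5%, beside 14.6% and 14.0% of all genes tested). Their median log2 change was only 0.07, and it moved with the processing, from 0.02 without a filter on dim genes to 0.37 with a floor of 16. Among ligands, INHBB, which forms activin B, read 81.9 and 92.8 in CD133+ and 325 and 276 in CD133- cells (log2 change -1.78, SE 0.13), and BMP4 read 2081 and 1889 against 3820 and 3523 (log2 change -0.89, SE 0.08). Among receptors, TGFBR2 read 3853 and 3786 against 2082 and 2198 (log2 change 0.84, SE 0.06, adjusted p = 1.79e-05). Among targets, ID3 and SMAD6 rose by 0.87 and 0.80 on the log2 scale. BAMBI, a decoy receptor for the family, is no member of that list but of the Wnt list, where it had the largest rise, at 1485 and 1382 against 368 and 314 (log2 change 2.08, SE 0.08, adjusted p = 1.42e-06). Of the 27 tested Wnt pathway genes 6 were higher and 3 lower (22.2% and 11.1%). Among genes tied to YAP and TEAD, CTGF read 8275 and 7594 against 3589 and 2930 (log2 change 1.29, SE 0.13), while ANKRD1 was under the floor in CD133+ cells and at 113 and 132 in CD133- cells, at least 3.73-fold lower, and CYR61 read 15266 and 15047 against 15128 and 14266 (adjusted p = 0.83). Of that list's 19 tested genes 6 were higher and 3 lower (31.6% and 15.8%). In the Notch list, with 3 higher and 6 lower of 18 tested (16.7% and 33.3%), the ligand JAG1 rose by 0.93 and the target HES1 fell by 1.13 on the log2 scale.

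**Figure D3:**
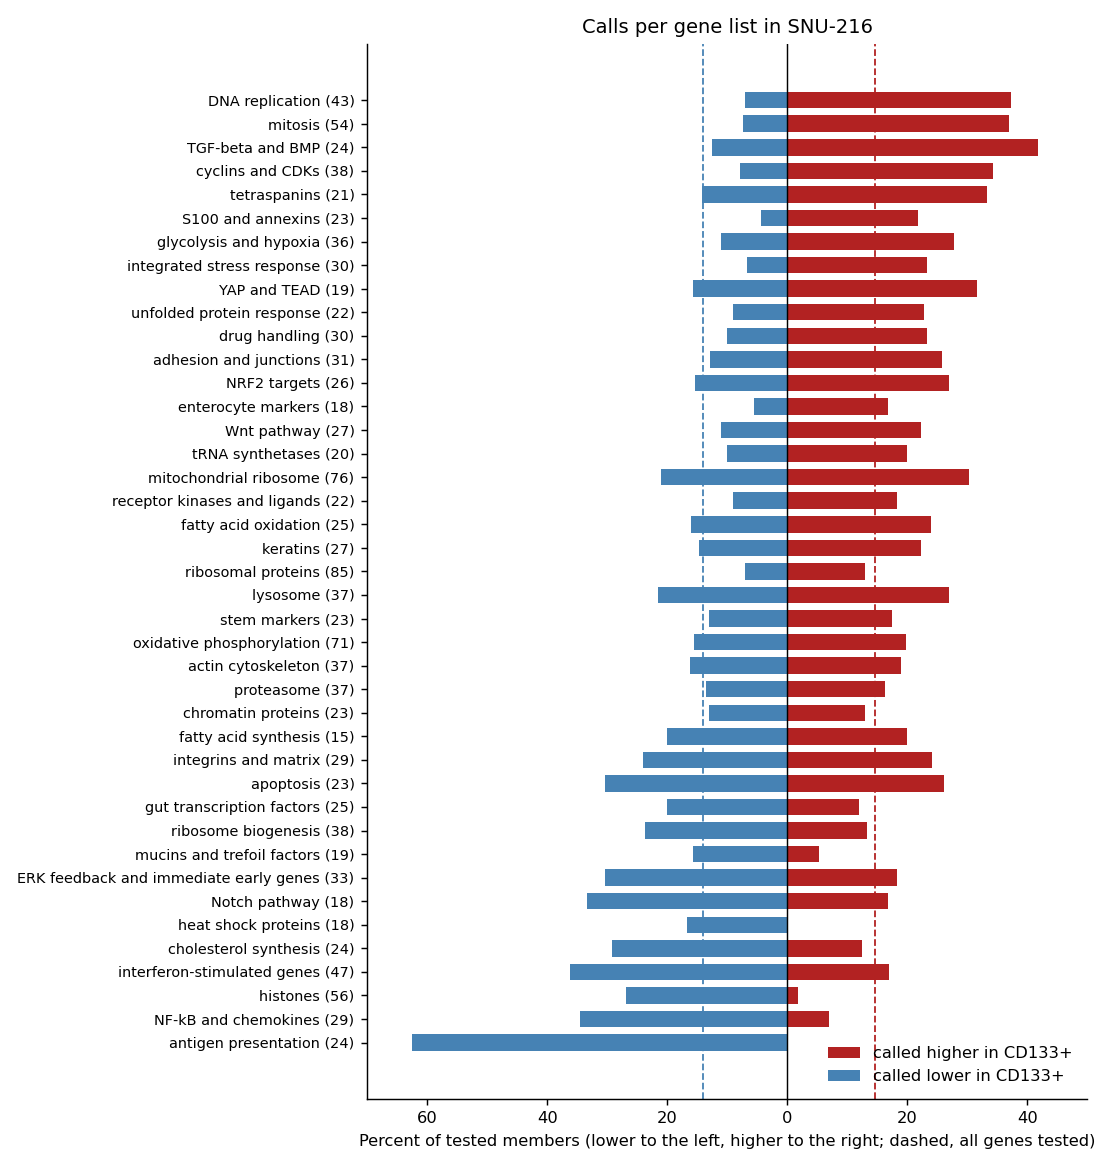
Percent of the tested members of each gene list (number tested in brackets, lists with at least 15 tested) called higher (to the right) and lower (to the left) in SNU-216 CD133+ cells, with dashed lines at the shares over all genes tested, 14.6% and 14.0%. Antigen presentation stands at the bottom with 62.5% lower and no gene higher, and DNA replication and mitosis stand at the top.

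Genes lower in CD133+ cells were unevenly spread over the chromosomes. This was noticed after the values were seen and is given as a description without a test. The tested symbols matched 15007 different RefSeq genes (build GRCh38.p14) with a chromosome, and 9879 of these had a mean over the 4 arrays above 100. Of those 21.8% were lower and 23.2% higher. On chromosome 7, 253 of 501 genes were lower (50.5%) and 42 higher (8.38%), with a median log2 change of -0.28. On chromosome 19, 337 of 672 were lower (50.1%) and 53 higher (7.89%), with a median of -0.30. On the other chromosomes, X included, the share of lower genes ran from 10.2% to 33.1% and the median from -0.12 to 0.13, the lowest on chromosome 16. Each CD133+ array set against each CD133- array gave the same picture, with medians from -0.32 to -0.27 on chromosome 7 and from -0.32 to -0.29 on chromosome 19, and from 0.03 to 0.04 over the rest. Between the 2 arrays of a fraction the medians on both chromosomes were within 0.02 of 0. In KATO-III the medians were 0.00 on chromosome 7 and -0.10 on chromosome 19, and in SNU-601 0.00 and 0.04.

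**Figure D4:**
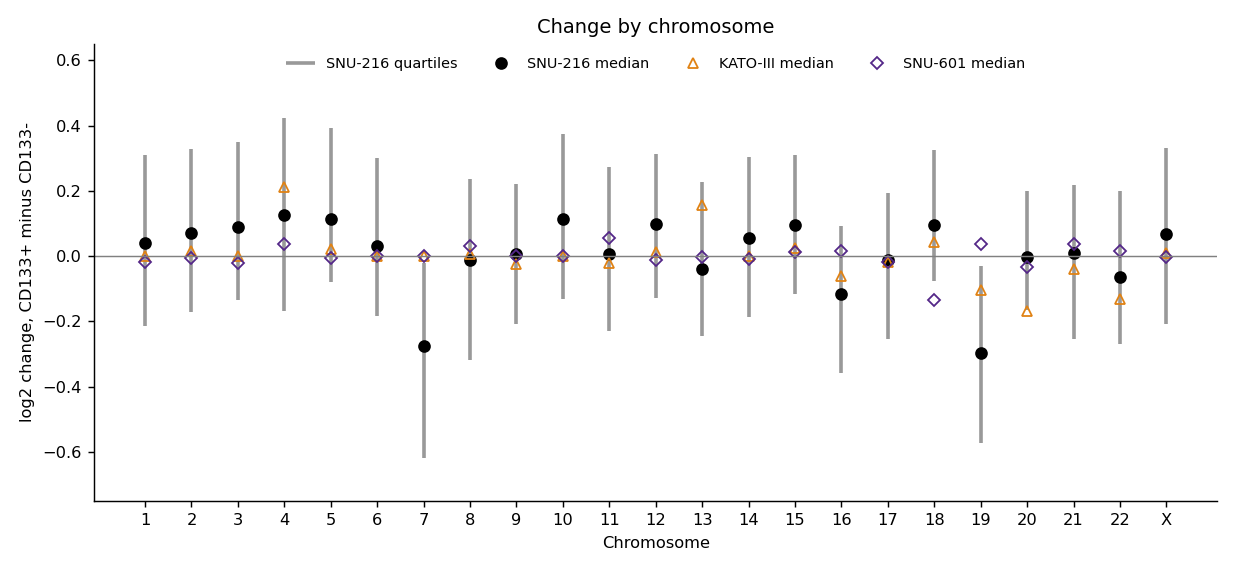
Median log2 change, CD133+ minus CD133-, by chromosome over genes with a mean above 100 on the SNU-216 arrays, for SNU-216 (filled circles, with grey bars from the lower to the upper quartile), KATO-III (open triangles) and SNU-601 (open diamonds). Chromosomes 7 and 19 stand at -0.28 and -0.30 in SNU-216, and their quartile bars end below 0.

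Along chromosome 7 the shift was found everywhere. The chromosome's genes were divided, in their order, into 10 blocks of 50 or 51 genes, and the block medians ran from -0.47 to -0.15. On chromosome 19 the first 5 blocks had medians between -0.56 and -0.40, and the last 5 between -0.28 and -0.06. In the first block, which ends at MRPL54, 52 of 68 genes were lower and 0 higher. The lowest blocks of the other chromosomes lay at chromosome ends: the last 2 blocks of chromosome 8 had medians of -0.44 and -0.43, the last block of chromosome 9 one of -0.34 and the first block of chromosome 16 one of -0.31. The 210 blocks of the other chromosomes ran from -0.44 to 0.41. Genes that were lower also spanned less of the genome, with a median span of 16.2 kb against 34.9 kb for higher genes and 24.2 kb for the rest, and leaving out chromosomes 7 and 19 gave 16.2, 35.9 and 25.1 kb. Over genes, Spearman's rho between the change and the span was 0.19 in SNU-216, 0.03 in KATO-III and -0.08 in SNU-601, where genes are no independent replicates and no p is given. The part of gene span in the shifts by chromosome was not tested. DNA was not measured, so copies of a chromosome and RNA made per copy cannot be told apart here.

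**Figure D5:**
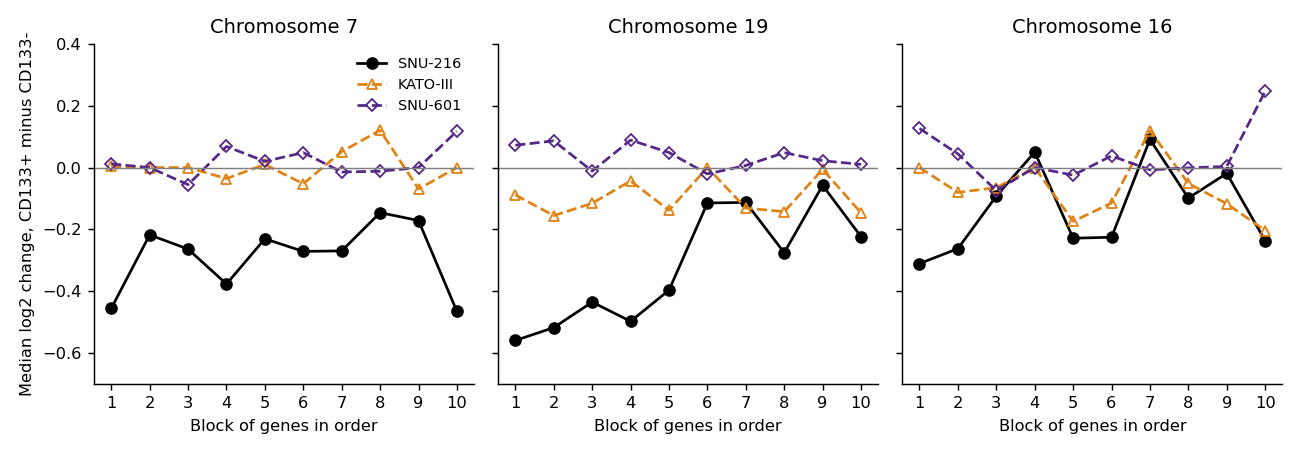
Median log2 change, CD133+ minus CD133-, of 10 successive blocks of genes along chromosomes 7, 19 and 16, in SNU-216 (filled circles), KATO-III (open triangles) and SNU-601 (open diamonds). All 10 SNU-216 blocks of chromosome 7 lie below 0, chromosome 19 is lowest in its first 5 blocks, and chromosome 16, the next lowest, has blocks on both sides of 0.

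Several genes named above lie on these chromosomes, among them PDE1C, DENND2A and POLD2 on 7 and FUT3 and POLD1 on 19, and AGR2, CPVL and CEACAM6 rose there against the lean. Without the genes matched to chromosomes 7 and 19, 2828 higher and 2166 lower genes were left of 18317. Genes without a matched chromosome were kept in these counts. No antigen presentation gene and 1 histone gene lie on them, so those lists gave 15 of 24 and 15 of 55 lower genes as before. DNA replication gave 16 higher and 1 lower of 37 (median 0.25), mitosis 19 higher and 3 lower of 52 (median 0.21), and oxidative phosphorylation, which had 14 higher and 11 lower of 71 (19.7% and 15.5%, near the 14.6% and 14.0% of all genes tested), gave 13 higher and 5 lower of 60. Mitochondrial ribosome genes, which were all clear, had 23 higher and 16 lower of 76 (30.3% and 21.1%, beside 22.2% and 21.5% of clear genes), and 22 higher and 11 lower of 68 without both chromosomes. MRPL4, on chromosome 19, showed the largest fall of that list (log2 change -0.95).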

How the data were processed

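Total RNA of the sorted cells was amplified, labelled and hybridised to Illumina HT-12 v3 BeadChips, and the submitters' processing notes name BeadStudio. The authors deposited 1 table of intensity values, quantile-normalized on a linear scale, with 1 row per gene symbol. The way probes were merged into genes and the background correction are not given in the sources used here. Of 34688 rows 93 were empty. Intensities were floored at 32.7, log2 was taken from the deposited values, and 20147 genes that passed it on 2 or more of the 12 arrays entered a limma 3.58.1 fit (R 4.3.3, lmFit, eBayes with a trend). All 6 populations had their own mean and shared 6 residual degrees of freedom, and p-values were adjusted by Benjamini-Hochberg at 0.05. A contrast of contrasts compared SNU-216 with the mean of KATO-III and SNU-601. Gene names, chromosomes, spans and promoters came from RefSeq (Python 3.11.15, pandas 2.3.3, matplotlib 3.10.9). The number of arrays limits the precision.

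The genes named are PROM1, PROM2, OVOL2, CDC2 and ARG1, the 15 with the largest change in each direction among called, clear genes with an ordinary symbol whose fractions did not overlap, up to 6 called clear members of each list, and usual markers of a list. The lists and the comparison were chosen with earlier results of these data known. The fit was tested on simulated data. Alternatives varied the floor, scaling, filter, trend, arrays and replicate block. The table's spike-in rows, which were empty, were not used here. A few genes that these rules select are not reported here.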

Additional observations from a re-analysis of the deposited data

Results flagged for a closer look

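The change in SNU-216 differed from the mean change in KATO-III and SNU-601 (limma, adjusted p under 0.05) for 30 of the genes named by rule and reported here, and the following values are that difference on the log2 scale.

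Above the other lines were KRT13 by 5.40, ALDH1A1 by 4.16, ACTA2 by 3.90, PCDH7 by 3.47, SLC9A2 by 3.45, UGT8 by 2.97, FUT4 by 2.95 and CPVL by 2.62, all measured in at least 1 other line. OSAP (3.68), ZNF533 (3.64), KCNMB4 (3.60), EYA1 (3.06), EDN2 (2.95) and OLR1 (2.82) lay at or below the floor on all 8 arrays of the other lines. PROM1, the sorted marker, rose more in SNU-216 than the mean of the other lines, by 0.54 (adjusted p = 0.000656), with log2 changes of 1.10 in KATO-III and 1.86 in SNU-601, and against SNU-601 alone the difference did not pass the test (adjusted p = 0.19). All of the 30 genes except PROM1 and UBA7 differed from each of the other lines taken alone.

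Below the other lines and measured in at least 1 of them were NDP (-2.45), CDA (-2.23), FUT3 (-1.95), HOXB8 (-1.81) and OVOL2 (-0.56). UBA7 lay below their mean (-1.18) through SNU-601 alone: its log2 change was -2.05 in KATO-III, where the difference from SNU-216 did not pass the test (adjusted p = 0.96), and 0.42 in SNU-601. OVOL2, a zinc finger repressor that keeps cells epithelial, read 3348 and 3638 in CD133+ and 5968 and 5932 in CD133- SNU-216 cells. At or below the floor on all 8 arrays of the other lines were PDE1C (-2.80), COL8A1 (-2.60), NECAB1 (-2.52), DENND2A (-2.46), FBLN1 (-2.35), ACOT4 (-2.28), CXCL12 (-2.15), ODZ3 (-1.98) and SPON1 (-1.98).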

How the results depend on the processing

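The counts of 2945 higher and 2817 lower genes stayed within 1.5 times under all 14 alternative limma settings, as did that of 5966 genes that differ from the other lines under the 13 that hold those lines, and the 34 tested genes named first by rule kept their direction and their side of the threshold in every setting in which they were tested. A signal-to-noise ratio past 1 on unlogged intensities within SNU-216, which tests no error rate, gave 6722 higher and 6826 lower genes of 34595. Leaving out 1 of the 4 arrays, where the lone array is assumed to vary like the other populations, gave 2227 to 2318 higher, 2085 to 2330 lower and 4776 to 5006 differing genes. With the replicate number as a replicate block in each line, 2636 were higher, 2517 lower and 5258 differed. Deviations of same-numbered arrays correlated at r = 0.01 between the fractions. This value cannot show whether same-numbered arrays shared a culture or a sort. List medians near the floor moved with its treatment. The median log2 change of antigen presentation ran from -0.52 with the filter on the 4 arrays to -0.36 with a floor of 100, and that of histones from -0.46 with that filter to 0.00 without a filter. ARG1 was under the floor on all 4 SNU-216 arrays and gives no change. Signal near the floor limits folds of dim genes: ACTA2 ran from 2.39 to 4.24 and NDP from -3.13 to -0.49 on the log2 scale.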

Other observations

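Of 24 tested cholesterol synthesis genes 7 were lower and 3 higher in SNU-216 CD133+ cells (29.2% and 12.5%), with a median log2 change of -0.20, and 23 of them were clear. Over all genes tested 14.0% were lower and 14.6% higher, and over clear genes 21.5% and 22.2%. Fatty acid oxidation genes gave 6 higher and 4 lower of 25 (24% and 16%), and fatty acid synthesis genes 3 higher and 3 lower of 15 (20% each), both near those shares. MGLL, the lipase of monoacylglycerols, read 199 and 242 against 635 and 674 (log2 change -1.58, SE 0.10), and PECI, now ECI2, an isomerase of fatty acid oxidation, read 190 and 201 against 25.4 and 33.1 (log2 change 2.57, SE 0.12). AKR1C3, a ketosteroid reductase, read 250 and 208 in CD133+ cells and was under the floor in CD133- cells, at least 6.97-fold higher, and it was lower in KATO-III CD133+ cells (log2 change -1.62). UGT1A6, which glucuronidates phenols, read 2099 and 2146 against 702 and 726 (log2 change 1.57, SE 0.05).

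Of 23 tested S100 and annexin genes 5 were higher and 1 lower (21.7% and 4.35%), and of 33 ERK feedback and immediate early genes 6 were higher and 10 lower (18.2% and 30.3%). Over all genes tested 14.6% were higher and 14.0% lower. S100A4 read 4696 and 4426 in CD133+ and 1980 and 1994 in CD133- cells (log2 change 1.20, SE 0.05), and S100A9 read 48.4 and 49.0 against 135 and 165 (log2 change -1.62, SE 0.16). IER3, an early response gene, read 2756 and 2443 against 6958 and 7174 (log2 change -1.44, SE 0.07). ACTG2, the smooth muscle gamma-actin, named after its values were seen, read 142 and 177 in CD133+ cells and was under the floor in CD133- cells, at least 4.85-fold higher, beside ACTA2. TWIST1, a factor of mesenchymal cells that lies on chromosome 7, read 221 and 258 against 676 and 582 (log2 change -1.39, SE 0.16). TAGLN, another smooth muscle gene, read 6700 and 6746 against 5098 and 5164 (log2 change 0.39, SE 0.06). Of 37 tested actin cytoskeleton genes 7 were higher and 6 lower (18.9% and 16.2%), with a median log2 change of 0.02. The list of epithelial-to-mesenchymal transition and mesenchymal genes gave 4 higher and 1 lower of 11 (36.4% and 9.09%), with a median of 0.09. The markers of fibroblasts that were measured stayed under 100 on all 4 arrays.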
